A study of Mus musculus with 12 samples.

Results

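The genes of the rod phototransduction cascade were examined in the differentially methylated regions (DMRs) of mouse retina lacking the TET enzymes. They are 8 of the 21938 protein-coding genes of the mouse annotation (GENCODE M21): Gnat1, Gnb1 and Gngt1 (transducin), Pde6a, Pde6b and Pde6g (phosphodiesterase), and Cnga1 and Cngb1 (cyclic nucleotide-gated channel). The genes were chosen for their role in rods, with earlier results of these data already known. A DMR was assigned to a gene when it overlapped the mm10 gene or the 5 kb on either side, here called its locus, which gave 88 of the 193836 regions of the bisulfite list and 153 of the 592906 regions of the 5hmC list.

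Genomic DNA came from whole retina of C57 BL/6J mice at postnatal day 21 (P21). The Cre- control group is given as genotype WT in the labels and, per the study's methods, came from age-matched animals of Cre- breeders. The Tet tcKO group carried loxp alleles of Tet1, Tet2 and Tet3 with the Chx10::Cre-GFP transgene, which acts in retinal progenitors and is mosaic, so breeders with 2 copies were used to limit mosaicism. Retinas of 2 animals were pooled per sample. Whole-genome bisulfite sequencing (WGBS) reads 5-methylcytosine (5mC) and 5-hydroxymethylcytosine (5hmC) together, and bACE-seq reads only 5hmC. For either assay the 2 groups were represented by 3 libraries apiece, which makes 12. The deposited lists give 1 mean level per group and region, so no spread between replicates, depth or interval was available for any level, no test between the groups was run, and every value below is a description. Each region was put on its list because the groups differed there, so its direction is not independent of how it was found, and a stretch outside the lists is not shown to be unchanged.

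The TET enzymes convert 5mC to 5hmC, from which unmodified cytosine can be restored. In a rod, light activates the opsin, which switches on transducin, the G protein built of the alpha subunit GNAT1, the beta subunit GNB1 and the gamma subunit GNGT1. Transducin relieves the catalytic subunits PDE6A and PDE6B from the inhibitory subunit PDE6G, cyclic GMP is hydrolysed, and the channel of CNGA1 and CNGB1 closes. Cones run the same cascade with their own paralogs of most of these subunits. Gnb1 is also used by many cells outside the photoreceptors, whereas the other genes are classical rod genes.

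The 250 bases ahead of the RefSeq start site are shown for 4 genes to set the CpG-dense start of Gnb1 beside the CpG-poor starts of 3 rod genes. Each is written 5′ to 3′ along the gene from GRCm38.p6, with every CpG in capitals. The stretches are chr4:155491111-155491360 on the plus strand for Gnb1, chr5:108388123-108388372 on the plus strand for Pde6b, chr5:72642753-72643002 on the minus strand for Cnga1 and chr8:95306586-95306835 on the minus strand for Cngb1.
Gnb1: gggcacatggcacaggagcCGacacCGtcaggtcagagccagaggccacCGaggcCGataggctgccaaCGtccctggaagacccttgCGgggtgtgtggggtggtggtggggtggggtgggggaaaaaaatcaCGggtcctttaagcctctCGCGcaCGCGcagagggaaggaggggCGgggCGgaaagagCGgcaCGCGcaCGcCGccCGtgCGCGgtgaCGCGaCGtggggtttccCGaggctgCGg
Pde6b: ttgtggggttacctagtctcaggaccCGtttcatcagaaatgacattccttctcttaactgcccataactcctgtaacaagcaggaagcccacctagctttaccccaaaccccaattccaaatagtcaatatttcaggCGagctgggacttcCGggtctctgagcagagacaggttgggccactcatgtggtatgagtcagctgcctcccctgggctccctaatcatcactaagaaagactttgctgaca
Cnga1: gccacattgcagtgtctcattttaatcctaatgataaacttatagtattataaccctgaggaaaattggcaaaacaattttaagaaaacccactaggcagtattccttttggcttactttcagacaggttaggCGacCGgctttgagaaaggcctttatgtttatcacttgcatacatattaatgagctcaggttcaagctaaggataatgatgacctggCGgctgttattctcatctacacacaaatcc
Cngb1: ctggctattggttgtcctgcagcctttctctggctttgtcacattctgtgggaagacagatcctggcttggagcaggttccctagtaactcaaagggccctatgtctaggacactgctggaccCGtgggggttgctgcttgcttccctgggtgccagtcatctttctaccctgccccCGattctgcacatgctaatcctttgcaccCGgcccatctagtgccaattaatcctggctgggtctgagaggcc
The Gnb1 stretch holds 26 CpGs, of which 13 lay in a region with more modified cytosine in Tet tcKO. The Pde6b, Cnga1 and Cngb1 stretches hold 3 CpGs each, and all 3 lay in such a region in each gene. The median over the 32851 promoters of the RefSeq table was 6 CpGs. Of the 8 genes, 5 were matched in that table, the fifth being Gngt1, whose RefSeq start lies 216 bp inside the annotated gene. Gnat1, Pde6a and Pde6g are named only.

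Motifs of photoreceptor transcription factors were searched on both strands of the same 250 bases. TAATCC, bound by CRX and OTX2, occurred 2 times in Cngb1 (58 and 25 bases before the start), 1 time in Cnga1 (228 bases before) and 1 time, on the minus strand, in Gngt1 (44 bases before). TGCTGA, part of the element bound by NRL, occurred 1 time in Pde6b, 8 bases before the start. The E-box CACGTG did not occur. Over all promoters, 6.25% held TAATCC, 16.1% TGCTGA and 6.02% CACGTG. These matches are letters in a window and were not tested as binding sites.

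All 8 genes had regions with more modified cytosine in Tet tcKO by WGBS, here called gains, and regions with less 5hmC, here called losses. Gains occurred at the loci of 76.8% and 5hmC losses at those of 88.3% of all protein-coding genes, so having one at all does not set the rod genes apart. None of the 8 loci held a WGBS region that was lower or a bACE-seq region that was higher in Tet tcKO. Such regions were rare at all loci (4.90% and 0.401%), so nothing about the rod genes is read from their absence. The rod genes differed from most of the annotation in how much of the locus was covered. Gains took a median of 41.4% of the bases of the rod loci, from 13.9% (Cngb1) to 70.3% (Gnb1), against a median of 3.36% over all protein-coding genes. Every rod locus lay above the 90th percentile of all genes, from percentile 90.4 (Cngb1) to 99.97 (Gnb1). Without Gnb1, which is not particular to rods, the median was 37.7%. Wide coverage was not particular to these genes, as 11 genes of response recovery, described below, had a median of 38.9%.

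The 88 gains averaged 47.3% modified cytosine in Cre- (the authors' group means, weighted by CpGs) and 74.9% in Tet tcKO, which is 27.6 percentage points more. Over all gains of the list it went from 56.7% to 74.1%, a rise of 17.4 points. By the weighted means, the gains at the rod loci thus began lower and ended at a like level. With each of the 88 regions counted equally, the medians were 57.0% in Cre- and 84.1% in Tet tcKO. The lower start therefore belongs to the weighted means and not to the typical region. Single rises at the rod loci ran from 1.93 to 56.0 points. The regions were also long: 15 of the 88 (17.0%) reached 3 kb, against 0.401% of all gains. Because the retina was sampled whole, a change in the share of rods and a change of level within rods cannot be told apart in any of these values.

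**Figure D1:**
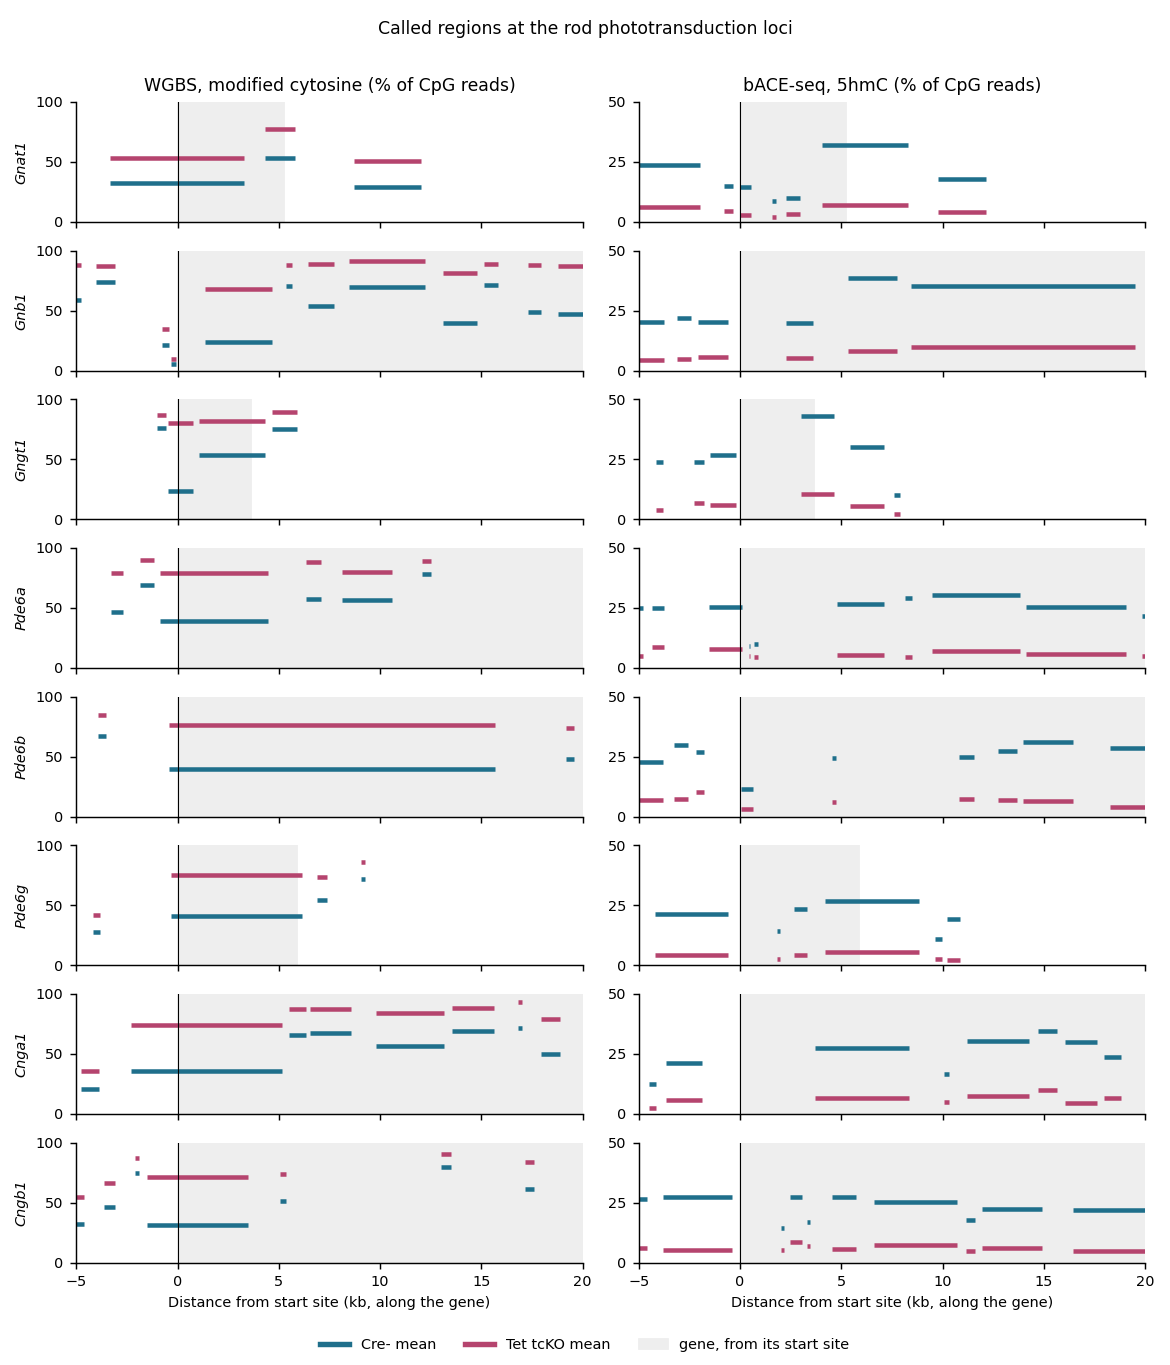
Levels along the 8 loci from 5 kb before to 20 kb after the start site, as the authors' group mean of each region (WGBS left, 0 to 100%; bACE-seq right, 0 to 50%), with the gene shaded from its start site. Each bar spans 1 region, and at all 8 loci the Tet tcKO bar lies above the Cre- bar in WGBS and below it in bACE-seq.

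Transducin alpha, Gnat1 (ENSMUSG00000034837.12), lies on the minus strand at chr9:107674474-107679712 and had 3 gains and 7 losses. Its most extensive gain, chr9:107676416-107683062, ran from 3350 bp before to 3296 bp after the start site, over the 5′ flank, 5′ UTR, coding exons and introns, and rose from 32.4% to 53.2% over 145 CpGs. This was the lowest Tet tcKO level among the start-site gains. The part upstream of Gnat1 reaches the neighbouring gene Sema3f. The other 2 gains lay at the 3′ end (53.4% to 77.6%) and in the 3′ flank (28.7% to 50.7%). All 3 gains together covered 63.5% of the locus.

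Transducin gamma, Gngt1 (ENSMUSG00000029663.10, chr6:3993792-3997436, plus strand), is the shortest of the 8 genes at 3645 bp. The gain over its start, chr6:3993321-3994545, rose from 23.7% in Cre- to 79.7% in Tet tcKO, the largest rise of the 88, although only 12 CpGs carry it. A second gain over most of the rest of the gene rose from 53.7% to 81.5%. The gene's 5′ UTR, coding exons and 3′ UTR lay entirely inside gains. The loss with the highest Cre- 5hmC level at the rod loci, chr6:3996782-3998442, fell from 43.0% to 10.6% in Tet tcKO over 14 CpGs. It covers most of the 3′ UTR of Gngt1 and runs on into the 3′ flank, where its larger part lies.

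Transducin beta, Gnb1 (ENSMUSG00000029064.15, chr4:155491361-155559269, plus strand), departed from the other 7. It had 23 gains, covering 70.3% of the locus, yet none over its annotated principal start site, where the surrounding 1 kb holds 107 CpGs, against 9 to 22 at the other starts. A gain of 22 CpGs ended 67 bp before the start and held little modification in either group (5.26% and 9.24%). From 1343 to 4644 bp after the start the level rose from 23.5% to 68.3%. The strongest gain by area statistic, the sum of the per-CpG statistics, was a 13499 bp stretch of coding exons and introns at chr4:155531176-155544674 that rose from 47.7% to 84.7%. A further gain of 9148 bp, chr4:155521005-155530152, rose from 28.0% to 73.8% and covers the start of another annotated Gnb1 transcript, so that all 8 genes had a gain over some annotated start.

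The catalytic subunits Pde6a and Pde6b both carried their strongest gain over the start site. In Pde6a (ENSMUSG00000024575.16, chr18:61220315-61289924, plus strand) it spanned 5298 bp, from 855 bp before the start, and rose from 39.1% to 78.6% over 74 CpGs. The other 18 gains of Pde6a were scattered over the gene and its flanks, and all 19 together covered 19.5% of the locus. In Pde6b (ENSMUSG00000029491.7, chr5:108388391-108432397, plus strand) the gain at chr5:108387968-108404085 was the longest of the 88, 16118 bp and 126 CpGs, and rose from 40.0% to 76.5%. It includes the promoter stretch shown above. A short gain over the 3′ end of Pde6b rose from 35.8% to 80.2%.

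The inhibitory subunit Pde6g (ENSMUSG00000025386.2, chr11:120447605-120453500, minus strand) lay whole inside 1 gain, chr11:120447361-120453816, which rose from 40.9% to 74.8% over 72 CpGs. Its 5′ UTR, coding exons, introns and 3′ UTR were each covered completely. The other 3 gains lay in the flanks and covered up to 502 bp each. The lowest of these, 3810 bp or more before the start, rose from 27.6% to 42.0%.

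Both channel genes showed the same placement. The start-site gain of Cnga1 (ENSMUSG00000067220.12, chr5:72603696-72644275, minus strand) was 7446 bp long, chr5:72637612-72645057, and rose from 35.6% to 73.7% over 67 CpGs. It covers the 5′ flank, 5′ UTR and intron sequence, no coding exon, and overlaps the long noncoding gene 4933408A14Rik. In Cngb1 (ENSMUSG00000031789.17, chr8:95239045-95306585, minus strand) the gain over the start, chr8:95303123-95308071, was 4949 bp long and rose from 31.6% to 71.0% over 68 CpGs. Beyond it Cngb1 had 14 short gains of 113 to 1291 bp, which left it with the smallest share of locus in gains, 13.9%. One of them, near the 3′ end, began at 8.18% and reached 35.9%.

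Start sites were the common feature. A gain lay over the annotated principal start of 7 of the 8 genes, against 4.93% of all protein-coding genes, and in each of the 7 it was also the gain with the largest area statistic. The 7 starts are CpG-poor by the measure used here (1 kb around the start with a GC content under 50% or an observed-to-expected CpG ratio under 0.6), and the start of Gnb1 is CpG-dense. Among all CpG-poor starts 7.28% and among all CpG-dense starts 2.17% lay in a gain (the CpG-dense class includes Gnb1). Gains of at least 3 kb over the start were found in 6 of the 8 genes, all but Gnb1 and Gngt1, and in 60 of all protein-coding genes (0.273%). The length of 3 kb was chosen after the lengths had been seen.

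The 7 start-site gains held 564 CpGs, which averaged 36.1% in Cre- against 69.6% in Tet tcKO. Cre- levels lay between 23.7% and 40.9%, and those of Tet tcKO between 53.2% and 79.7%. The regions were listed because the groups differed there, so the distance between these ranges over genes is not a separate result. The 58 gains in gene bodies away from the start began higher, at 55.0%, and reached 81.9%. The 13 gains of the 5′ flanks went from 40.8% to 55.8% and the 10 of the 3′ flanks from 46.2% to 65.6%. The rise was 33.5 points over the start sites, 15.0 in the remaining 5′ flank gains and 19.4 in those of the 3′ flanks. With the upstream parts of the start-site gains counted in the 5′ flanks, gains there went from 36.9% to 61.1%, and those in the 3′ flanks from 50.8% to 71.2%, so the order of the flanks depends on that choice. By annotated feature, gains covered 82.4% of the 5′ UTR bases of the 8 genes, 31.7% of the coding exons, 40.1% of the introns and 34.7% of the 3′ UTRs.

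**Figure D2:**
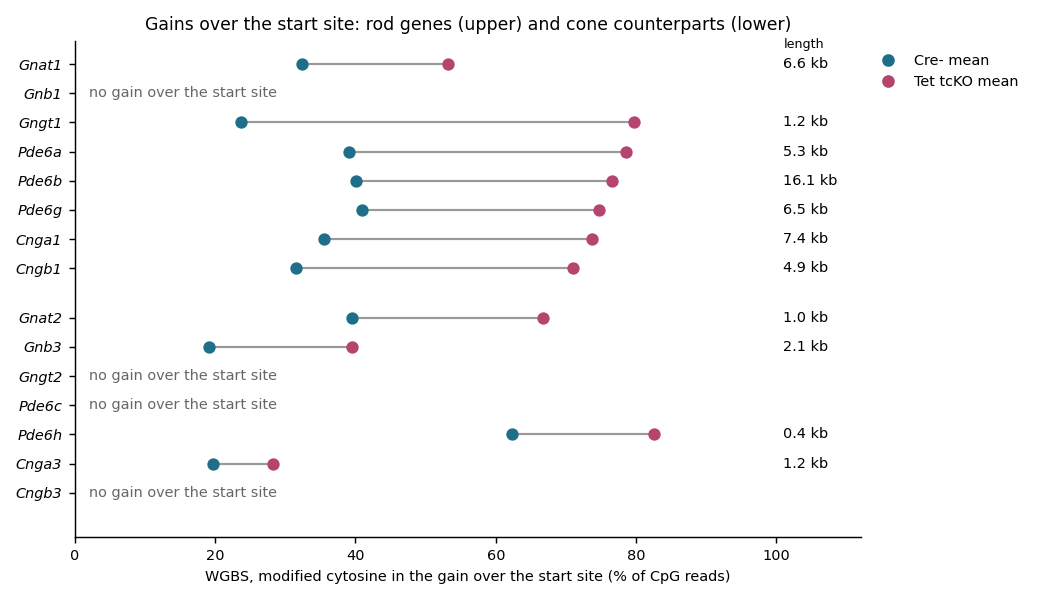
WGBS level of the gain over the start site as the authors' group means in Cre- and Tet tcKO, with the region's length, for the 8 rod genes and the 7 cone counterparts. The 7 rod genes with such a gain start at 23.7% to 40.9% and reach 53.2% to 79.7%, and 4 of the 7 cone genes have one.

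Losses of 5hmC were wide at most rod loci and alike in the fraction of 5hmC kept. They covered a median of 61.6% of the locus, from 42.4% (Gngt1) to 65.2% (Pde6a), against 27.7% over all protein-coding genes. The rod loci lay between percentile 72.1 (Gngt1) and 95.0 (Pde6a) of all genes. Gngt1 and Pde6b (percentile 73.8) were thus inside the middle 50% of all genes. The 153 losses averaged 23.4% 5hmC in Cre- against 5.55% in Tet tcKO, so that 23.7% of the Cre- level was left. Over all losses of the list it fell from 16.1% to 3.86%, leaving 24.0%. The rod loci thus began with more 5hmC and kept a like fraction of the deposited level, between 19.8% (Pde6g) and 25.2% (Gnb1). The study reports that a small part of unmodified cytosine failed to convert in bACE-seq. No such background was subtracted here, so the Tet tcKO levels may include it, and the likeness of the fractions holds only for the levels as deposited. Of the 153 losses, 25 (16.3%) reached 3 kb, against 2.82% of all losses.

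The losses with the largest area statistic lay outside the start sites, some of them ending within 2 kb. In Pde6a it was chr18:61291928-61301500 in the 3′ flank (22.3% to 5.61%), which crosses the 5 kb border and lies mostly beyond it. All its 152 CpGs were counted. In Pde6b it was chr5:108423830-108428588 in the gene body (25.7% to 5.36%). In Pde6g it was chr11:120454103-120457709 in the 5′ flank (21.5% to 4.17%), which ended 603 bp before the start. The intronic loss of Gnb1 at chr4:155499815-155510866 was the longest of the 153 (11052 bp, 35.0% to 9.85%), and that of Gngt1 was the 3′ region named above. The largest loss of Gnat1 lay in the 5′ flank at chr9:107681691-107686547 (23.5% to 6.05%). It ended 1979 bp before the start and extends into Sema3f. The channel genes differed in placement, with an intronic loss in Cnga1 at chr5:72634404-72639046 (27.3% to 6.47%) and one in Cngb1 at chr8:95306956-95310387 that ended 371 bp before the start (27.2% to 5.45%). None of these 8 regions covers a start site.

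A 5hmC loss over the start site was found in 1 of the 8 genes, Pde6a, where 1621 bp fell from 25.5% to 7.67%. This share is near that of all protein-coding genes, 11.5%. Coverage by losses changed along the first kilobases of the genes. In the 7 genes with a start-site gain, losses covered 47.4% of the bases in the 1 kb before the start, 20.9% in the first 1 kb after it and 4.01% in the second. Coverage returned to 61.2% between 4 and 5 kb and to 76.9% between 6 and 7 kb. The last bin lies past the gene end, in the 3′ flank, in Gnat1, Gngt1 and Pde6g, where it was covered completely. In the longer genes its coverage was 100% in Pde6a and Cnga1, 38.3% in Cngb1 and 0 in Pde6b. Gngt1 also ends before the bin from 4 to 5 kb. Only Gnat1 (17.9%) and Pde6g (10.2%) had any loss in the second 1 kb. Over all protein-coding genes losses covered 16.2% of the first and 34.2% of the second 1 kb, and over those with a CpG-poor start, as these 7 have, 20.8% and 24.1%. The rod genes were thus near other CpG-poor genes in the first 1 kb and lower in the second, a difference that was not tested. Among the other 1074 genes with a start-site gain they covered 41.1% and 40.3%, and among the other 54 genes with such a gain of at least 3 kb, 40.0% and 35.1%.

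**Figure D3:**
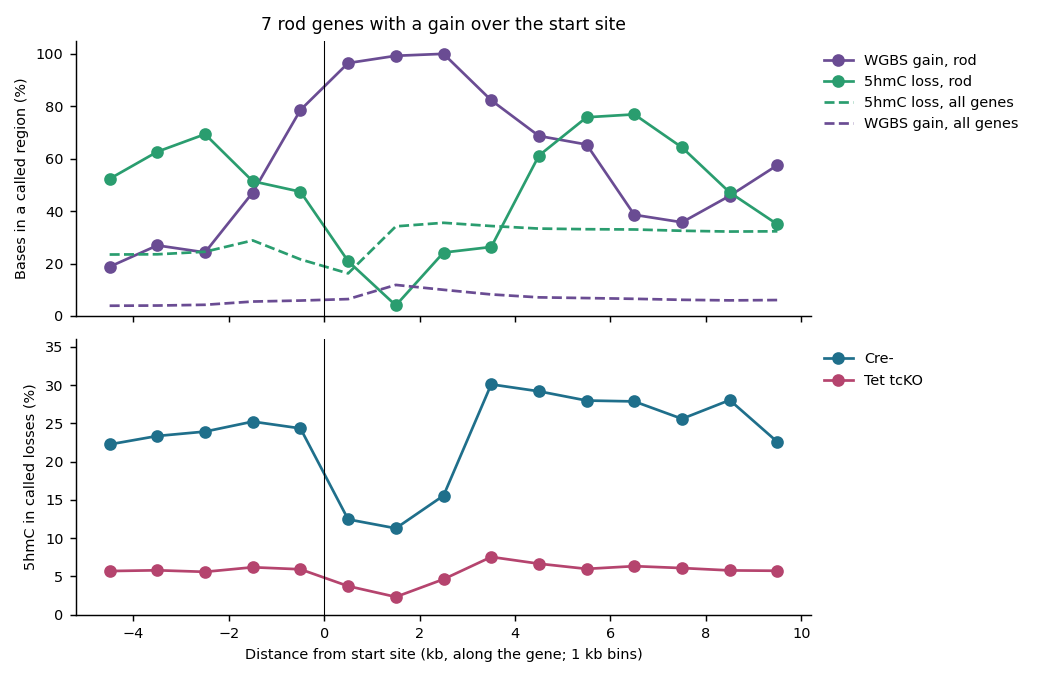
Mean share of bases inside WGBS gains and 5hmC losses by 1 kb bin from the start site for the 7 rod genes with a start-site gain and for all protein-coding genes (dashed), and below it the mean 5hmC level of the called losses of the rod genes in each group. The 7 genes were taken for a gain at 0, so that peak follows from the choice, whereas the share in 5hmC losses fell to 4.01% between 1 and 2 kb, where the Cre- level in what was called was 11.3%.

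Where losses were found in that stretch their Cre- level was also low. It averaged 12.4% in the first and 11.3% in the second 1 kb, with 3 and 2 genes contributing, against 24.4% in the 1 kb before the start and 30.1% between 3 and 4 kb. The start-site gains as a whole had 32.1% of their bases inside a loss, from 22.2% in Pde6a to 48.4% in Gnat1, whereas the other 81 gains had 61.6%. The lists do not give levels outside their regions, so whether 5hmC was low or merely not called between these losses was not tested. By feature, losses covered 24.8% of the 5′ UTR bases, 76.8% of the coding exons, 56.3% of the introns and 89.1% of the 3′ UTRs. The 5′ UTR was thus covered least by losses, with 7 CpGs inside them, and most by gains. The 3′ UTR was covered most by losses but was not the lowest for gains.

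Both assays could be set side by side where a gain and a loss overlapped, which held for 84 of the 88 gains and for 1188 CpGs. There the WGBS level rose from 52.9% to 78.7% and 5hmC fell from 25.9% to 6.24%. Subtracting bACE-seq from WGBS, as a stand-in for 5mC, gave 27.0% in Cre- against 72.5% in Tet tcKO. Read this way, 5hmC made up 39.4% (Pde6a) to 59.9% (Pde6g) of the modified cytosine in Cre- and 6.96% (Cngb1) to 9.07% (Gngt1) in Tet tcKO. The same computation over overlapping bases gave 52.0% in Cre- and 8.22% in Tet tcKO for the rod loci, and 33.8% and 6.51% for both lists as a whole. These are ratios of region means from separately smoothed lists and not levels of the same CpGs. Background from failed conversion was not subtracted in them either.

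The cone counterparts were compared because they encode the same steps in the other photoreceptor. Gnat2, Gnb3 and Gngt2 are the cone transducin subunits, Pde6c and Pde6h the cone phosphodiesterase, and Cnga3 and Cngb3 the cone channel. Gains covered 15.9%, 16.1% and 26.2% of the transducin loci, 7.27% and 5.18% of the phosphodiesterase loci, and 2.77% and 1.39% of the channel loci. Their median was 7.27%, and only the values of Gngt2, Gnb3 and Gnat2 exceeded that of the lowest rod locus, Cngb1. All 7 cone starts are CpG-poor.

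Start-site gains were present in Gnat2 (39.6% to 66.7%), Gnb3 (19.1% to 39.5%), Pde6h (62.3% to 82.5%) and Cnga3 (19.6% to 28.2%), 4 of 7 genes. They were 424 to 2054 bp long, so none reached 3 kb. Within 2 kb of the start a median of 30.2% of the bases of the cone genes lay in a gain, against 77.1% in the rod genes and 0 over all protein-coding genes. For 5hmC losses in that window the cone genes lay above the rod genes, with medians of 51.4% in the cone genes, 36.1% in the rod genes and 22.9% over all. Over the whole locus the cone genes had a median of 32.5% in 5hmC losses, nearer to all genes than to the rod genes, with a range from 7.54% (Cngb3) to 74.4% (Gnb3). These lists are small and the differences between them were not tested.

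The genes that end the light response and restore calcium and cyclic GMP (arrestin, kinase, recoverin, the RGS9 complex, guanylate cyclases with their activators, and the exchanger) are used by rods, and most of them by cones as well. Of the 11 genes, 9 had a start-site gain, and in 3 of them it reached 3 kb. Gains covered a median of 38.9% of their loci and 5hmC losses 67.2%, both close to the rod medians. Coverage by gains was highest at Rcvrn, recoverin, a calcium sensor that inhibits the opsin kinase (59.2%), and Guca1b, an activator of guanylate cyclase (48.9%). It was lowest at the 2 guanylate cyclases Gucy2f (5.41%) and Gucy2e (11.5%).

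**Figure D4:**
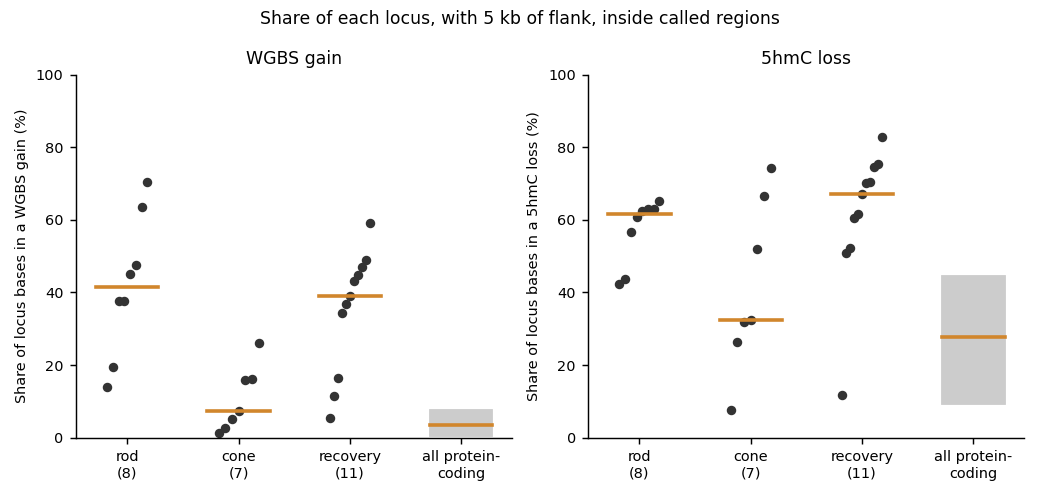
Share of each locus, with 5 kb on either side, inside WGBS gains (left) and 5hmC losses (right), 1 point per gene, with the median as a line and the middle 50% of all protein-coding genes as a box. The medians for gains are 41.4% (rod), 7.27% (cone), 38.9% (recovery) and 3.36% (all genes).

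The 5 kb border sets which regions were counted. Of the rod regions, 3 gains and 10 losses cross it, and 10 gains and 12 losses also overlap another gene, such as Sema3f, Tspan10 or Nipal1. The nearest WGBS region beyond the border lay 395 bp away at Gnb1 (34.2% to 51.2%), next to the last one inside it (4.54% to 6.46%), and 35292 bp away at Pde6b. One of these nearest outside regions, 18037 bp beyond the 3′ border of Cnga1, was lower in Tet tcKO (11.0% to 7.95%). The nearest outside bACE-seq regions lay between 290 bp (Gnb1) and 7339 bp (Pde6a) from the border, and all of them were lower in Tet tcKO.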

How the data were processed

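WGBS and bACE-seq each had 3 Cre- and 3 Tet tcKO libraries of whole P21 retina, grouped by the sample labels. Per the study's methods, reads were trimmed with TrimGalore, aligned to mm10 with Bismark (0.18.2), kept at a mapping quality of at least 10 with SAMtools (1.15.1), deduplicated with Picard (GATK 4.1.3) and read per CpG with MethylDackel (0.6.1). The authors called DMRs with DSS, with smoothing, a p threshold of 0.01, at least 3 CpGs and 50 bp, and merging within 50 bp. Versions are from the submitters' processing notes. Smoothing makes borders less exact than levels, and regions need several close CpGs.

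The authors' group means are deposited as a fraction from 0 to 1 and printed here as percent. The deposited area statistic is a score that sums the statistics of a region's CpGs. It was used to name 1 region per gene and list, to say where that region lay, and for the filter on the mean statistic given below. The deposited difference column holds the authors' own comparison and was not used for values. The Cre- mean was subtracted from the Tet tcKO mean to give changes in percentage points, and means over regions were weighted by CpGs. Depth was not analysed here, so no interval was computed and no test was run.

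Genes and start sites (APPRIS principal transcript, then longest coding sequence) came from GENCODE M21 basic, and overlap required 1 bp. All region ends lay on the C of a CpG of GRCm38.p6 when read as 1-based positions. Named were the 8 genes, in each list their region with the largest absolute area statistic and the one over the start site, any region of the opposite direction, the 7 cone counterparts, and the 2 highest and 2 lowest recovery genes by share of locus in gains. Further regions named were picked with their values in view. The members and lists were chosen with earlier results of these data known. Alternatives were a flank of 0, 2 or 10 kb, assignment by midpoint, filters on CpGs (10), on the difference (0.1, 0.2) and on the mean statistic, any start site, windows of 1 and 5 kb, shares by CpGs, unweighted means, means over loci and, added after seeing the data, no regions over another gene. Scripts were tested on simulated regions with known overlaps. Computation used Python with NumPy, pandas, SciPy and Matplotlib.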

Additional observations from a re-analysis of the deposited data

How the results depend on the processing

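Of 86 alternative values for 10 results, 77 stayed within 1.5 times the count or within 1 SD over the 8 loci of the value given above, 9 moved further and 0 reversed direction. With regions of at least 10 CpGs the 88 gains fell to 47 and the 153 losses to 96. With a difference of at least 0.2, which keeps larger changes by construction, 48 gains and 47 losses were left, the mean WGBS change was 31.6 points, the mean 5hmC change was -23.5 points and the median share of locus in 5hmC losses was 30.8%. Counting each region equally gave a mean WGBS change of 22.3 points, and leaving out the 5 kb flanks gave a median share in 5hmC losses of 52.3%. The cause was not tested beyond these definitions. The number of genes with a gain over the start site was 7 under each filter, 8 with any annotated start and 5 without regions that overlap another gene. No paired analysis was possible because the lists hold 1 mean per group, and for the same reason no library could be left out. Depth was not analysed here, so a region missing from a list may reflect few reads.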
